A study of Homo sapiens with 12 samples.

Results

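The TRIM and RNF genes are named families of ubiquitin ligases, and they were followed here through 3 human soft tissue sarcoma cell lines given taurolidine, TRAIL or both. Members were all genes whose symbol in the array annotation is TRIM or RNF followed by digits, with a single trailing letter or L allowed and no hyphen. This gave 131 genes (56 TRIM and 75 RNF), measured by 292 of the 54675 probe sets. A member was tested if, on 3 or more of the 12 arrays, one of its probe sets lay over 136.5, which is the table median. The probe set with the highest mean stood for the gene. By this rule 107 members were tested (45 TRIM and 62 RNF) among 14221 genes in all.

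Labels name A-204 a rhabdomyosarcoma line, SK-LMS-1 a leiomyosarcoma line and VA-ES-BJ an epithelioid sarcoma line. Each gave 1 array after 6 h with taurolidine (250 µmol/l), 1 with taurolidine plus TRAIL (50 ng/ml), 1 with TRAIL (50 ng/ml) and 1 untreated. Taurolidine is an antimicrobial made from taurine and is toxic to many cultured tumour cells, and TRAIL is a ligand of death receptors. The series title asks about synergy of the agents. Values are MAS5 signals, an array brightness on a linear scale in which every array had been given the same trimmed mean. Each group is 3 lines with 1 array each. An array pools all cells of a culture, so fewer cells with a transcript and less transcript per cell cannot be told apart. The array medians lay between 123.2 and 155.4. Of the line markers, SMARCB1, whose loss typifies epithelioid sarcoma, was dimmest in untreated VA-ES-BJ, at 152, with untreated A-204 at 1235. The rest of that list was mixed. KRT19, KRT8 and KRT18 were brightest in untreated VA-ES-BJ, at 16189, 16153 and 18904. EPCAM was brightest in A-204, at 1915, with 130 in VA-ES-BJ, and VIM was dimmest in VA-ES-BJ, at 36707.5. The smooth muscle gene TAGLN was brightest in SK-LMS-1, at 9763. ACTA2, another smooth muscle gene, was brightest in VA-ES-BJ, at 4979.9, with 1686 for SK-LMS-1 and 1667 for A-204. The skeletal muscle regulators MYOD1 and MYOG, which define rhabdomyosarcoma, were under the table median in untreated A-204, at 28.6 and 10.2. On the taurolidine arrays spiked-in poly-A control RNAs (27 probe sets) read 0.59 higher on the log2 scale (SD 0.11, 3 lines). The part of this shift in the results below was not tested.

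Ubiquitin is passed from an activating enzyme (E1) to a conjugating enzyme (E2), and a ligase (E3) brings the loaded E2 to the protein to be tagged. Most ligases do so through a RING, a zinc-binding fold that docks the E2. TRIM proteins share a tripartite motif of RING, B-box and coiled coil and are known from antiviral defence, chromatin silencing and muscle. RNF stands for ring finger protein, a label given to genes with little in common beyond the RING, among them ligases of the endoplasmic reticulum membrane, of DNA break repair and of SUMO-marked proteins.

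Taurolidine was examined first as the mean of the 6 arrays with it minus the mean of the 6 without it, in a linear model with treatment and line as terms (limma, Benjamini-Hochberg adjustment over 14221 genes, threshold 0.05). In both families more members fell than rose. Of the 45 TRIM genes 14 fell (31.1%) and 2 rose (4.44%). Of the 62 RNF genes 20 fell (32.3%) and 7 rose (11.3%). Of all genes 18.1% fell and 16.6% rose. The median log2 change was -0.15 over the TRIM genes, -0.10 over the RNF genes and 0.041 over all genes; with quantile normalisation the RNF median turned to 0.031. Values below 0 were seen for 33 TRIM genes (73.3%) and 36 RNF genes (58.1%), against 46.1% of all genes.

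Changes were spread more widely among RNF than among TRIM genes. The SD of the log2 changes was 0.39 across TRIM genes and 0.55 across RNF genes, against 0.52 across all genes. The median absolute change was 0.21 and 0.32, against 0.28 for all genes. Changes of at least 2-fold past the threshold were found for 2 TRIM genes, TRIM32 and TRIM13, and for 5 RNF genes, RNF145, RNF19A, RNF217, RNF26 and RNF139, all of them falls; no member rose that far (0.703% of all genes). That is 4.44% of the TRIM and 8.06% of the RNF genes, against 4.87% of all genes. These are descriptions of the tested members, and the difference between the families was not tested.

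**Figure D1:**
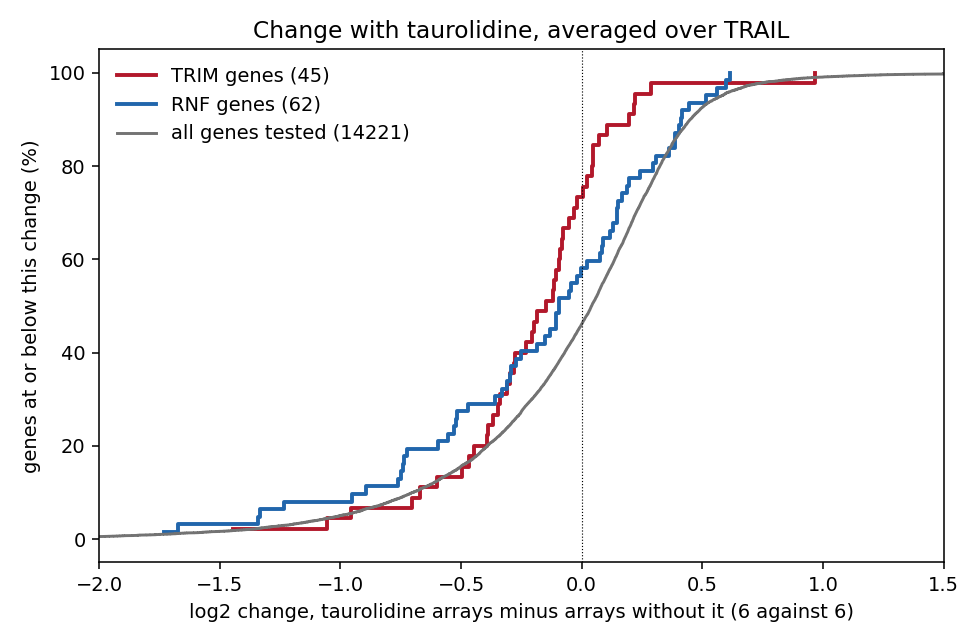
Share of genes (vertical axis, percent) at or below each log2 change with taurolidine (horizontal axis) for the 45 TRIM genes, the 62 RNF genes and all 14221 genes tested. The TRIM curve lies left of the curve of all genes around 0, with 73.3% of its genes below 0 against 46.1%, and the RNF curve lies left of it among the larger falls.

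The counts depended on scaling and on the lines. Of the 43 members called, 79.1% were lower, against 52.2% of the calls over all genes. With quantile normalisation 25 were lower and 14 higher (64.1% lower, against 43.4% over all genes). With arrays scaled to the poly-A spikes 90 were lower and 0 higher, where 66.6% of all genes were called lower and 0.556% higher. Spike scaling moved the median of all genes by -0.57. Relative to the median of all genes, the TRIM and RNF medians were -0.19 and -0.14 as deposited, -0.21 and -0.15 with spike scaling, and -0.13 and -0.051 with quantile normalisation. The RNF value was -0.064 with the mean of all probe sets and -0.048 without A-204. Without A-204 the falls numbered 4 TRIM and 7 RNF genes (8.85% of all genes), without SK-LMS-1 7 and 11 (10.8%), and without VA-ES-BJ 8 and 12 (12.3%). The rises then numbered 0 TRIM genes in each case and 1, 3 and 5 RNF genes (3.54%, 4.58% and 8.03% of all genes). With each line left out in turn, 10 of the 43 members passed all 3 times: RNF19A, TRIM32, RNF217, RNF26, RNF139, TRIM13, TRIM21, RNF168, RNF34 and RNF167.

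The standard errors and p-values count the pair of taurolidine arrays of a line as separate estimates, although there are only 3 lines. With 1 response value per line, a fit added after the data were seen (limma, 2 residual degrees of freedom), 6 of the 43 calls held: RNF26, RNF19A, TRIM13, RNF139, TRIM21 and RNF217, all lower (3.8% of all genes lower and 0.443% higher). Their adjusted p lay between 0.028 and 0.046. The other 37 members called in the array-level fit did not pass, TRIM32 at 0.064, RNF168 at 0.067 and RNF167 at 0.069 among them. The values below are those of the array-level fit.

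Among the RNF falls, RNF19A, a ligase of the RING-between-RING type, had one of the smallest p-values. Here and below, the values of a treatment are those of A-204, SK-LMS-1 and VA-ES-BJ in that order. Its signals were 396, 913 and 372 with taurolidine and 329.5, 1029 and 394 with both agents, against 1190.3, 2238 and 1465 with TRAIL alone and 1262, 2612 and 1645 in untreated cells. All 6 arrays with taurolidine lay below all 6 without it. It fell by 1.67 ± 0.12 on the log2 scale (SE, 3.19-fold lower, adjusted p = 9.7e-05). RNF217, of the same type and linked in mice to the iron exporter ferroportin, fell by 1.34 ± 0.18 (2.53-fold, adjusted p = 0.0012), with mean signals of 314 with taurolidine and 842 without it. RNF19B, the close relative of RNF19A, fell by 0.76 ± 0.18 (adjusted p = 0.013); with any 1 line left out it no longer passed (adjusted p from 0.050 to 0.061). RNF14 also fell, by 0.47 ± 0.11, while its other tested probe sets gave -0.15 and -0.077. Of 8 RNF-named genes of the RING-between-RING type tested, 4 fell and none rose (all genes, 18.1% fell and 16.6% rose). Ligases of this type with other names were not part of that count. The others, among them RNF144A at 0.13 ± 0.10 and RNF216 at -0.29 ± 0.11, did not pass.

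Another group of large falls was found among ligases anchored in membranes. RNF26, which sits in the endoplasmic reticulum and holds endosomes near the nucleus, had signals of 1172, 2423 and 1043 with taurolidine and 1114, 2717 and 935 with both agents, against 3148, 5890.2 and 2391 with TRAIL alone and 3086, 5998 and 2691 in untreated cells. Every taurolidine array of a line was below every other array of that line, and the fall was 1.33 ± 0.076 (2.52-fold, adjusted p = 4.3e-05). RNF139, also known as TRC8, a ligase of endoplasmic reticulum protein disposal, had 1464, 1274 and 1574 with taurolidine and 1264, 1165 and 1175 with both agents, against 3604, 3189 and 2678 with TRAIL alone and 3220.1, 3391 and 2633 in untreated cells. Here the ranges of all 6 arrays with and all 6 without taurolidine were apart, and the fall was 1.23 ± 0.10 (2.35-fold, adjusted p = 1.4e-04). RNF170 fell by 0.52 ± 0.13 (adjusted p = 0.016), while its other tested probe sets gave -0.21 and 0.041.

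RNF145, a sterol-linked ligase of the endoplasmic reticulum, fell most on average, by 1.73 ± 0.43 (3.32-fold, adjusted p = 0.016), but unevenly; over the 3 lines the standard error was 0.58 and the adjusted p 0.14. Its signals were 5354, 12653 and 915 with taurolidine and 4715, 11842 and 1047 with both agents, against 17741, 15759 and 9583 with TRAIL alone and 16107, 13720.3 and 8455 in untreated cells. The change was -1.75 for A-204, -0.26 for SK-LMS-1 and, for VA-ES-BJ, -3.19. Without VA-ES-BJ it was -1.01 and without SK-LMS-1 -2.47, and it passed in 1 of the 3 analyses that left out a line. A dimmer probe set of the gene changed by -0.77. Of 11 tested genes on a hand-made list of RNF-named membrane ligases outside the protease-associated group, 4 fell and none rose (all genes, 18.1% fell and 16.6% rose). The list was not complete. RNF175, which rose, and RNF19A, RNF19B and RNF217, which fell, were not on it. Membrane ligases with other names were not part of that count.

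Of 6 tested RNF genes of chromatin and DNA damage, 4 fell and none rose (all genes, 18.1% fell and 16.6% rose). RNF8 and RNF168 act in sequence to ubiquitinate histones at double-strand breaks, RNF169 binds that mark, and RNF138 acts in the trimming of broken ends. RNF169 fell by 0.95 ± 0.17 (adjusted p = 0.0046), RNF168 by 0.74 ± 0.12 (adjusted p = 0.0031), RNF8 by 0.55 ± 0.15 (adjusted p = 0.025) and RNF138 by 0.52 ± 0.12 (adjusted p = 0.011). The other tested probe set of RNF138 gave -0.14. For RNF168 the signals were 1259, 2502 and 1153 with taurolidine and 1025, 2587 and 1514 with both agents, against 1851, 3813 and 2811 with TRAIL alone and 2099.5, 3341 and 2341 in untreated cells. They were lower in 6 of 6 comparisons of a taurolidine array with its matched array of the same line and TRAIL status, as were those of RNF169, RNF8 and RNF138. Of all genes 17.4% were lower in all 6. The pairs are the arrays that gave the calls, so the pair counts are not separate support for them. RNF20 and RNF40, partners in histone H2B ubiquitination, stood at 0.15 ± 0.067 and 0.19 ± 0.074 and did not pass. Ligases of DNA repair outside the RNF family were mixed. BRCA1 and RAD18 stood at -0.13 ± 0.13 and 0.040 ± 0.10 and did not pass, nor did HLTF at 0.063 ± 0.072. BARD1, the partner of BRCA1, fell by 0.34 ± 0.082 (limma, adjusted p = 0.015). RFWD3 and SHPRH fell by 0.62 ± 0.090 and 0.43 ± 0.092 (limma, adjusted p = 0.0019 and 0.0094). RNF8 and RNF138 did not pass when any 1 line was left out, with an adjusted p of up to 0.12 and 0.070.

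Both SUMO-targeted RNF ligases tested, which add ubiquitin to proteins already tagged with SUMO, fell (18.1% of all genes fell). RNF4 had mean signals of 3025 with taurolidine and 5185 without it and fell by 0.89 ± 0.14 (adjusted p = 0.0025). RNF111, known as Arkadia from TGF-beta signalling, fell by 0.75 ± 0.13 (adjusted p = 0.0043). Both Wnt-linked RNF genes tested also fell, again against 18.1% of all genes. RNF220, which stabilises beta-catenin, changed by -0.73 ± 0.17, and RNF146, which targets axin, by -0.30 ± 0.084 (limma, adjusted p = 0.012 and 0.027). RNF25 fell by 0.72 ± 0.16 (adjusted p = 0.010) and RNF141 by 0.33 ± 0.075, though another tested probe set of RNF141 gave 0.27. With 1 line left out, RNF146 never passed (limma, adjusted p of up to 0.18). RNF111, RNF220, RNF25 and RNF141 passed in 1 of the 3 such analyses, and RNF4 in 2.

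Of the RNF genes followed for a link to death receptor or innate immune signalling, RNF34 and RNF135 fell. RNF34, a ligase reported to act on initiator caspases, had signals of 3233, 4282 and 2548 with taurolidine and 2763, 4353 and 2453 with both agents, against 4601, 6008 and 4639.8 with TRAIL alone and 4337, 5961 and 3744 in untreated cells. It fell by 0.59 ± 0.079 (1.51-fold, adjusted p = 0.0013), but its dim probe sets, with mean signals of 196 and 233, gave 0.10 and 0.51, and the mean over all probe sets was 0.0044. RNF31, the catalytic subunit of the complex that builds linear ubiquitin chains on death receptor complexes, was barely measurable, at 139, 123 and 124 with taurolidine and 40.2, 63.8 and 139.5 in untreated cells, and did not pass (0.39 ± 0.40). RNF135, a partner of the RNA sensor RIG-I, fell by 0.53 ± 0.12 (adjusted p = 0.013) and was the only call among 6 immune and NF-kB members, a share near that of all genes, of which 18.1% fell.

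TRIM32 showed the largest TRIM fall. It is a ligase with NHL repeats whose mutation causes a limb-girdle muscular dystrophy. Its signals were 586, 1176 and 761 with taurolidine and 490.1, 1258 and 717 with both agents, against 2379, 2546 and 1567 with TRAIL alone and 2483, 2523 and 1682 in untreated cells. With taurolidine every array was below every array without it, and the fall was 1.44 ± 0.19 (2.72-fold, adjusted p = 0.0012). A dimmer probe set changed by -1.17. The other NHL members tested, TRIM2 and TRIM3, stood at -0.20 ± 0.17 and -0.23 ± 0.15 and did not pass.

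TRIM13, a ligase anchored in the endoplasmic reticulum, gave nearly the same change in each line. Its signals were 735, 391 and 802 with taurolidine and 849.8, 475 and 825 with both agents, against 1605, 866 and 1821 with TRAIL alone and 1548, 868 and 1925 in untreated cells. The fall was 1.05 ± 0.071 (2.08-fold, adjusted p = 7.4e-05), and was -0.99 for A-204, -0.99 for SK-LMS-1 and, for VA-ES-BJ, -1.19. Its other tested probe sets gave -1.28, -0.45 and, for the dimmest, 0.83. TRIM59, also membrane-anchored, fell by 0.39 ± 0.088 (adjusted p = 0.011).

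TRIM21, the cytosolic antibody receptor, was the clearest of the antiviral members, with signals of 829, 732 and 477 with taurolidine and 926, 680.1 and 630.2 with both agents, against 1981, 1342 and 1004 with TRAIL alone and 2101, 1199 and 955 in untreated cells. The 6 taurolidine arrays all lay below the other 6, and the fall was 0.96 ± 0.10 (1.94-fold, adjusted p = 5.1e-04). TRIM38 and TRIM56, both modulators of innate immune signalling, fell by 0.50 ± 0.12 and 0.39 ± 0.074 (limma, adjusted p = 0.017 and 0.0056). The other tested probe set of TRIM56, of similar brightness, gave -0.039, and those of TRIM38 gave -0.13 to -0.68. Of 10 antiviral and interferon-linked members tested, 3 fell and none rose (all genes, 18.1% fell and 16.6% rose). TRIM5, the retroviral restriction factor, TRIM25, which acts on RIG-I, and TRIM22 did not pass, at -0.078 ± 0.12, 0.044 ± 0.15 and 0.19 ± 0.11.

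The TIF1 genes, which regulate transcription at chromatin, split. TRIM24 fell by 0.70 ± 0.14 (adjusted p = 0.0059) and TRIM33, which acts on SMAD4, by 0.47 ± 0.076 (adjusted p = 0.0030), while TRIM28, the corepressor of KRAB zinc finger proteins, rose by 0.29 ± 0.068 (adjusted p = 0.014). TRIM28 was the brightest member of its family, at 16358, 15207 and 16434 with taurolidine and 13174, 14204 and 14484 in untreated cells. It was higher in 6 of 6 matched pairs (17.1% of all genes were), which are the arrays that gave the call and so not separate support. Under spike scaling the sign of TRIM28 turned (-0.31). TRIM66, of the same group, stood at -0.19 ± 0.13. One of the tested probe sets of TRIM33 gave 0.038. TRIM27, a transcriptional repressor, fell by 0.67 ± 0.11 (limma, adjusted p = 0.0035) and TRIM45 by 0.60 ± 0.17 (limma, adjusted p = 0.028). Their other tested probe sets gave -0.71 and -0.086 for TRIM27 and -0.14 for TRIM45. TRIM62, TRIM69 and TRIM37 completed the TRIM falls at -0.37 ± 0.12, -0.35 ± 0.090 and -0.28 ± 0.089, the last with a second probe set at 0.088. TRIM16, which lacks a RING, fell by 0.45 ± 0.087; TRIM16L is a close copy, so the probe sets of the pair may share signal.

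**Figure D2:**
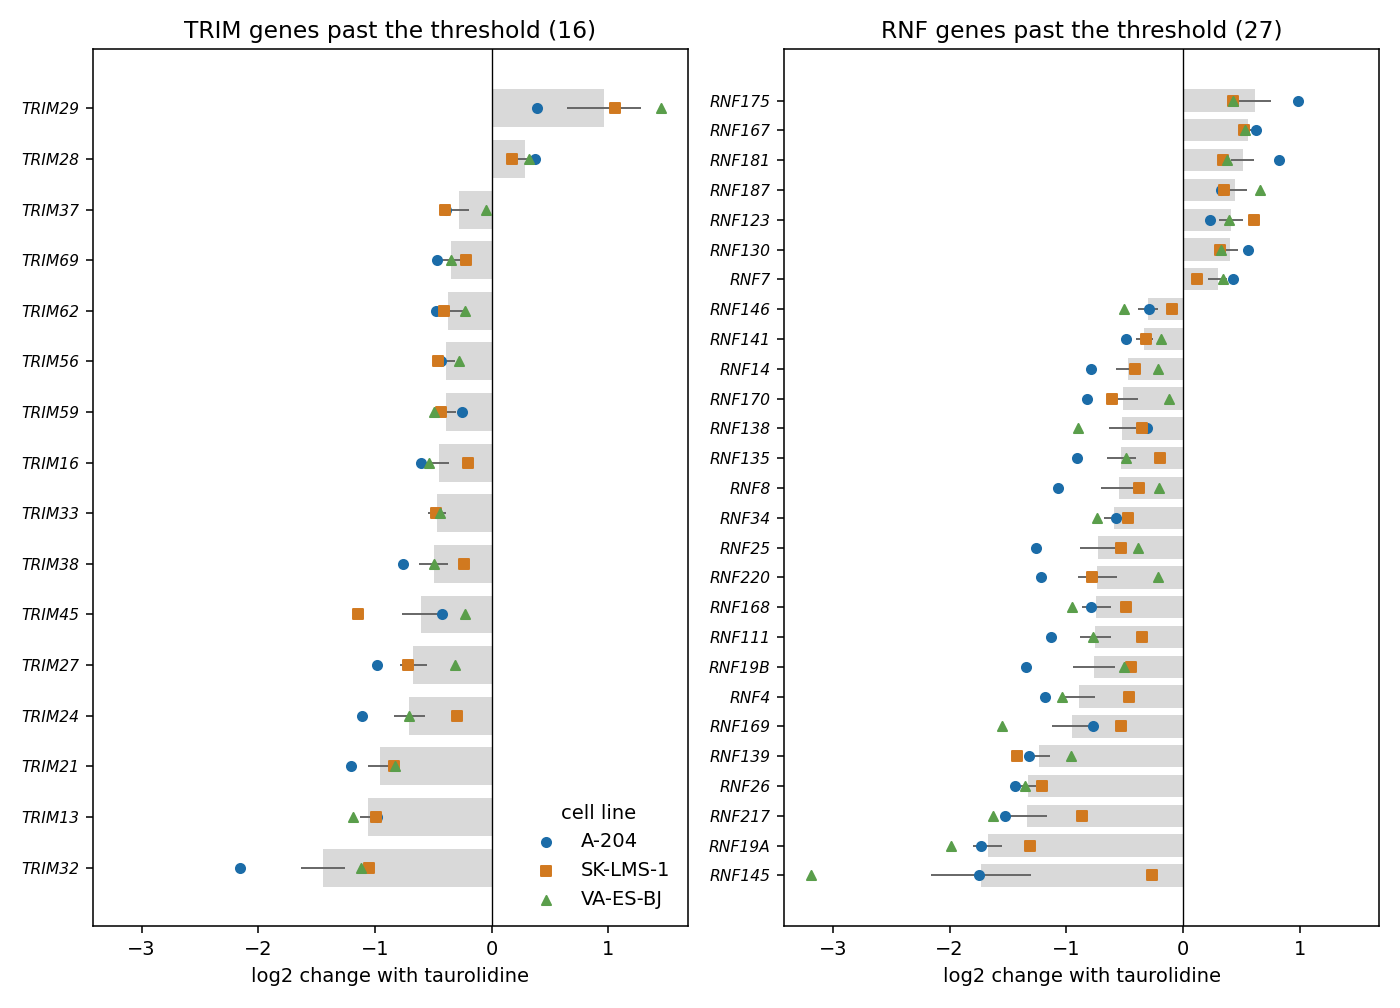
Log2 change with taurolidine (horizontal axis) for the 16 TRIM and 27 RNF genes past the threshold, as the model mean (grey bar), its standard error (line) and the value in each cell line (points). All points of a gene lie on one side of 0, and they lie farthest apart for RNF145, from -0.26 in SK-LMS-1 to -3.19 in VA-ES-BJ.

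The rises were small and lay mostly among bright RNF genes. RNF167, a ligase of endosomes and lysosomes with a protease-associated domain, had signals of 4942, 5953 and 4546 with taurolidine and 6429, 6679 and 3986 with both agents, against 3920.1, 4431 and 3046 with TRAIL alone and 3403, 4313 and 2832 in untreated cells. Within each line both taurolidine arrays were above the others, and the gene rose by 0.56 ± 0.084 (1.48-fold, adjusted p = 0.0021). RNF130, of the same structural group, rose by 0.40 ± 0.071 (adjusted p = 0.0042). Of 6 protease-associated members 2 rose and none fell (all genes, 18.1% fell and 16.6% rose). RNF181, the brightest RNF gene, had 14125, 19799.7 and 13404 with taurolidine and 14342, 18468 and 13140.0 with both agents, against 8327, 14928 and 11011 with TRAIL alone and 7752, 15217 and 9496 in untreated cells and rose by 0.51 ± 0.10 (adjusted p = 0.0060). RNF7, the RING subunit of cullin 5 ligases, rose by 0.30 ± 0.079 (adjusted p = 0.021), and its 3 other probe sets gave 0.11 to 0.35. RNF187, a coactivator of JUN, RNF123, which targets the cell cycle inhibitor p27, and RNF175 rose by 0.45 ± 0.10, 0.41 ± 0.10 and 0.61 ± 0.14 (adjusted p = 0.012, 0.015 and 0.012). Of these 7 RNF genes only RNF175 kept a positive sign under spike scaling; RNF167 and RNF181 were then at -0.031 and -0.080. The other tested probe sets of RNF130, all dim, gave values from -0.21 to 0.47, and a dim one of RNF187 gave -0.17.

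TRIM29, which lacks a RING and is known from basal epithelia, had the largest rise of either family, 0.97 ± 0.32 (adjusted p = 0.047). Its signals were 2238, 345 and 130.0 with taurolidine and 1907, 147 and 226 with both agents, against 1539, 71.5 and 22.9 with TRAIL alone and 1602, 145 and 118 in untreated cells. Signals far above the table median were seen in A-204 alone, where the change was 0.39. The larger changes of the other lines rest on signals between 22.9 and 345, and the gene did not pass with any 1 line left out (adjusted p of at least 0.085).

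**Figure D3:**
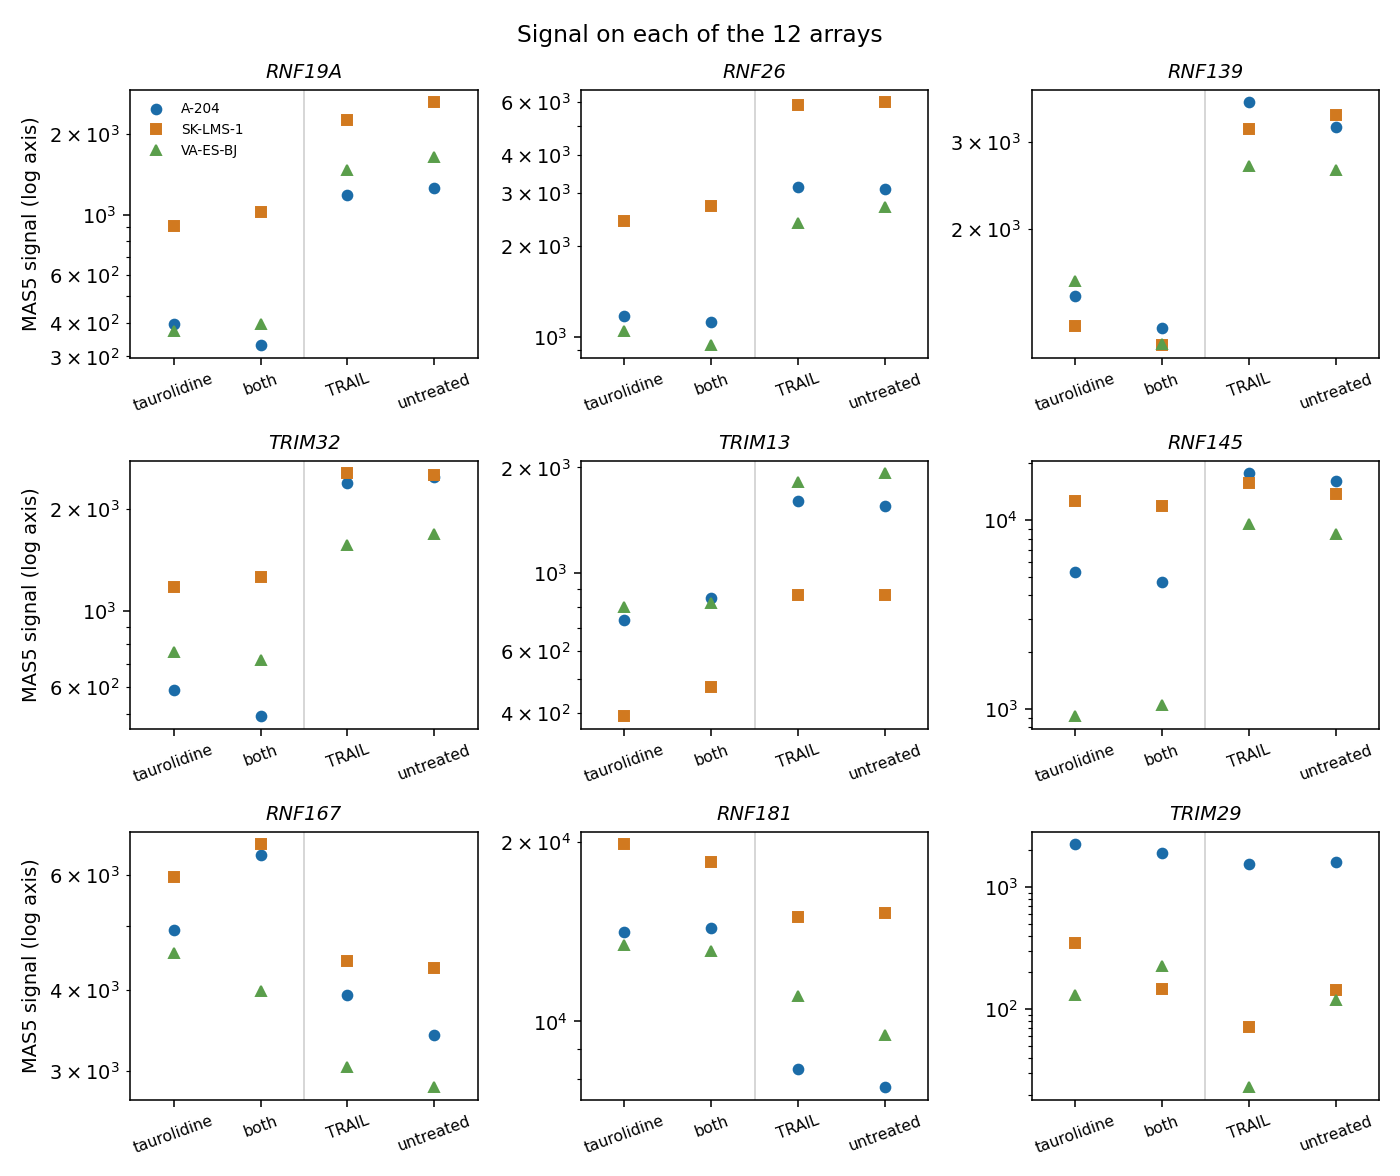
MAS5 signal (vertical axis, log scale) on all 12 arrays for 9 members, by treatment (horizontal axis) and cell line (colour and shape). For TRIM32 and RNF139 all arrays left of the grey line, which carry taurolidine, lie below all arrays right of it; for RNF145 the SK-LMS-1 points stay close together while the VA-ES-BJ points separate most.

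Promoter sequence was set beside these changes, from RefSeq on GRCh38.p14, where 86 of the 107 tested members had an entry. The 250 bases upstream of the start are shown for the pair of falls and the pair of rises that were largest among genes with a single annotated start; capitals mark matches, on either strand, to the CCAAT box (CCAAT), the GC box (GGGCGG), the AP-1 motif (TGANTCA), the cyclic AMP element (TGACGTCA), the TATA box (TATAAA), the NRF1 core (GCATGCGC) or the ETS core (CCGGAAG), which may overlap. The window of RNF26 is chr11:119334277-119334526 on the plus strand, that of TRIM21 chr11:4393703-4393952 on the minus strand, that of RNF175 chr4:153760025-153760274 on the minus strand and that of RNF181 chr2:85595495-85595744 on the plus strand.
RNF26: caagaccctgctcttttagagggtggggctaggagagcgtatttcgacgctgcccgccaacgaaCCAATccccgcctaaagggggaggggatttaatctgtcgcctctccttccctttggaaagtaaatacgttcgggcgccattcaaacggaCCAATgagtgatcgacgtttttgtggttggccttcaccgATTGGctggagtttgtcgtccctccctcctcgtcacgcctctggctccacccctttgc
TRIM21: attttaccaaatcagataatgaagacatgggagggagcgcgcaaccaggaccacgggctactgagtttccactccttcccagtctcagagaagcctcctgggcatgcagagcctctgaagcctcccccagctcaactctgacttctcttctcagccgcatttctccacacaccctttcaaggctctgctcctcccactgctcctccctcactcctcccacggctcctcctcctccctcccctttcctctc
RNF175: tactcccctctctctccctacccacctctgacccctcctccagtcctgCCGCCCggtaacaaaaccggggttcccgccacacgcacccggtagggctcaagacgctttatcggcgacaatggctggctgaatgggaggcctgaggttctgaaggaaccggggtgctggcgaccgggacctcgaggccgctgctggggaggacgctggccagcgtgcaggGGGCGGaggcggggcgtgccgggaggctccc
RNF181: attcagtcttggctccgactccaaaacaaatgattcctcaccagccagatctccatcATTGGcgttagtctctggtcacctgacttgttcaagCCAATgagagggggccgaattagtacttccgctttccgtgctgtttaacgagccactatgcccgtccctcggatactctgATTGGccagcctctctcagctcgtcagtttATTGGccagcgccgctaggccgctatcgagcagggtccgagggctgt
RNF26, which fell, and RNF181, which rose, both carried several CCAAT boxes, and TRIM21 carried none of the motifs searched. A CCAAT box was found in 40% of 40 promoters of members that fell, in 25% of 8 promoters of members that rose and in 32.6% of 16532 promoters of all genes tested. For the GC box the shares were 47.5%, 50% and 60.6%. The AP-1 motif TGANTCA stood in 5%, 0% and 4.71%, and the cyclic AMP element TGACGTCA in 0%, 12.5% and 2.33%, the 12.5% being 1 promoter. The TATA box TATAAA stood in 2.5%, 0% and 6.5%. These are counts of letters in a window, given without a test.

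Gene length was set beside the change in the members and in all genes. The median gene length was 40.9 kb for RNF genes that fell, 9.26 kb for RNF genes that rose and 37.2 kb for those that did not pass. For TRIM genes it was 24.9, 16.7 and 25.8 kb. Across the 107 members Spearman's rho of gene length with the log2 change was -0.23, and across 14206 genes -0.22. The genes of an array share its scaling and are not independent, so this is a description.

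The agents were then compared one by one with untreated cells. These comparisons share the untreated arrays, and each rests on 3 arrays a side. With taurolidine alone 8 TRIM and 9 RNF genes fell, and 0 TRIM and 4 RNF genes rose (all genes, 11.5% lower and 7.71% higher). With taurolidine plus TRAIL 8 TRIM and 12 RNF genes fell, and 0 TRIM and 3 RNF genes rose (all genes, 11.3% and 7.58%). At an unadjusted p under 0.05 (limma) no TRIM gene was higher with taurolidine alone (16% of all genes) and 1, TRIM28, was with both agents (16.3%). When only the 6 arrays of a comparison were fitted (limma), 0 members passed for either treatment (28 and 29 at an unadjusted p under 0.05). Without a line 1 to 3 of either family passed for taurolidine and 1 to 5 for both agents. Shares of all genes are not given for these fits, so the counts cannot be set against other genes. RNF19A changed by -1.75 ± 0.17 with taurolidine and -1.75 ± 0.17 with both agents. For RNF26 the values were -1.35 ± 0.11 and -1.37 ± 0.11, for TRIM32 -1.43 ± 0.27 and -1.51 ± 0.27, and for RNF167 0.56 ± 0.12 and 0.68 ± 0.12.

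TRAIL alone changed no member past the threshold, nor any other gene (0% of all genes in either direction, limma). At an unadjusted p under 0.05 there were 3 members, TRIM67, TRIM42 and RNF115, with 2.97% of all genes lower and 0.991% higher. TRIM67 stood at 31.6, 169 and 193 with TRAIL and 231, 266 and 265 in untreated cells (-1.18 ± 0.41, adjusted p = 1.0 in limma), and TRIM42 at 97.4, 145 and 117 with TRAIL and 175, 199 and 171 in untreated cells (-0.57 ± 0.21). TRAIL added to taurolidine likewise changed 0 members (0% of all genes, limma). The members of smallest p were RNF185 at 0.38 ± 0.13 and TRIM52 at 0.27 ± 0.11, the only ones at an unadjusted p under 0.05 (1.65% of all genes higher and 0.984% lower). The median difference between both agents and taurolidine alone was -0.024 for TRIM and -0.014 for RNF genes.

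The response to taurolidine was next compared between lines, with TRAIL left out of the model so that arrays with and without it served as repeats. An F test of line differences in the response (limma) called 3 TRIM genes and 1 RNF gene, or 6.67% and 1.61%, against 3.5% of all genes. RNF145 had an adjusted p of 0.0018. It was the 1 member still called with no filter, with spike scaling, with the mean of all probe sets, without A-204 and without VA-ES-BJ; without SK-LMS-1 there were 0. TRIM32 changed by -2.16 for A-204, -1.05 for SK-LMS-1 and, for VA-ES-BJ, -1.12 (adjusted p = 0.019), and TRIM27 by -0.98 for A-204, -0.72 for SK-LMS-1 and, for VA-ES-BJ, -0.31 (adjusted p = 0.049). TRIM2, a ligase for neurofilament light chain, had signals of 311, 2872 and 1059.7 with taurolidine and 340.3, 2593 and 1014 with both agents, against 548, 2468 and 956 with TRAIL alone and 621, 2443 and 1038 in untreated cells; the change was -0.82 for A-204, 0.15 for SK-LMS-1 and, for VA-ES-BJ, 0.057 (adjusted p = 0.027). RNF8, RNF220, TRIM4 and TRIM24 came next and did not pass, with an adjusted p of 0.053, 0.060, 0.061 and 0.074. The family medians were lowest in A-204, at -0.42 for TRIM and -0.22 for RNF genes. They were -0.15 and -0.052 in SK-LMS-1, and -0.089 and -0.082 in VA-ES-BJ. The medians of all genes were 0.015, 0.031 and 0.061 in the same order.

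A few members differed widely in level between the lines. Line means lay at least 4-fold apart for 9 TRIM (20%) and 8 RNF genes (12.9%), against 19.7% of all genes. TRIM55, a muscle ligase bound to the sarcomere and microtubules, averaged 5324 on the VA-ES-BJ arrays, 108 on those of A-204 and 21.9 for SK-LMS-1, the last below the table median on every array. RNF128, a ligase of T cell anergy, stood at 9488 in VA-ES-BJ and 4275 in A-204, but only 67.6 in SK-LMS-1. TRIM22, an interferon-induced antiviral gene, stood at 4134 in VA-ES-BJ, 488 in SK-LMS-1 and 410.2 in A-204; the arrays of the last pair of lines overlapped. TRIM9, known from neurons, and RNF182 were also brightest in VA-ES-BJ, with means of 1639 and 510.0.

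Other members marked the remaining lines. RNF169 was brightest in SK-LMS-1, at 3563, with A-204 at 780.2 and VA-ES-BJ at 579. RNF144B and TRIM61 were over the table median on every SK-LMS-1 array, with means of 765 and 355. TRIM29 and RNF150 were brightest in A-204, at 1822 and 489. The F test for line called 84 of 107 members (limma), 71.1% of TRIM and 83.9% of RNF genes, against 73.9% of all genes. Without SK-LMS-1 it called 53 members, a count given without the share of all genes. The arrays of a line come from 1 line, so these p-values reflect the spread between arrays. Of the RNF genes 30 of 62 had their highest mean in SK-LMS-1 (48.4%), and of the TRIM genes 19 of 45 in VA-ES-BJ (42.2%); for all genes these shares were 33.3% and 31.8%. The median of the mean signals was 1284 for TRIM, 1864 for RNF and 1189.6 for all genes.

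**Figure D4:**
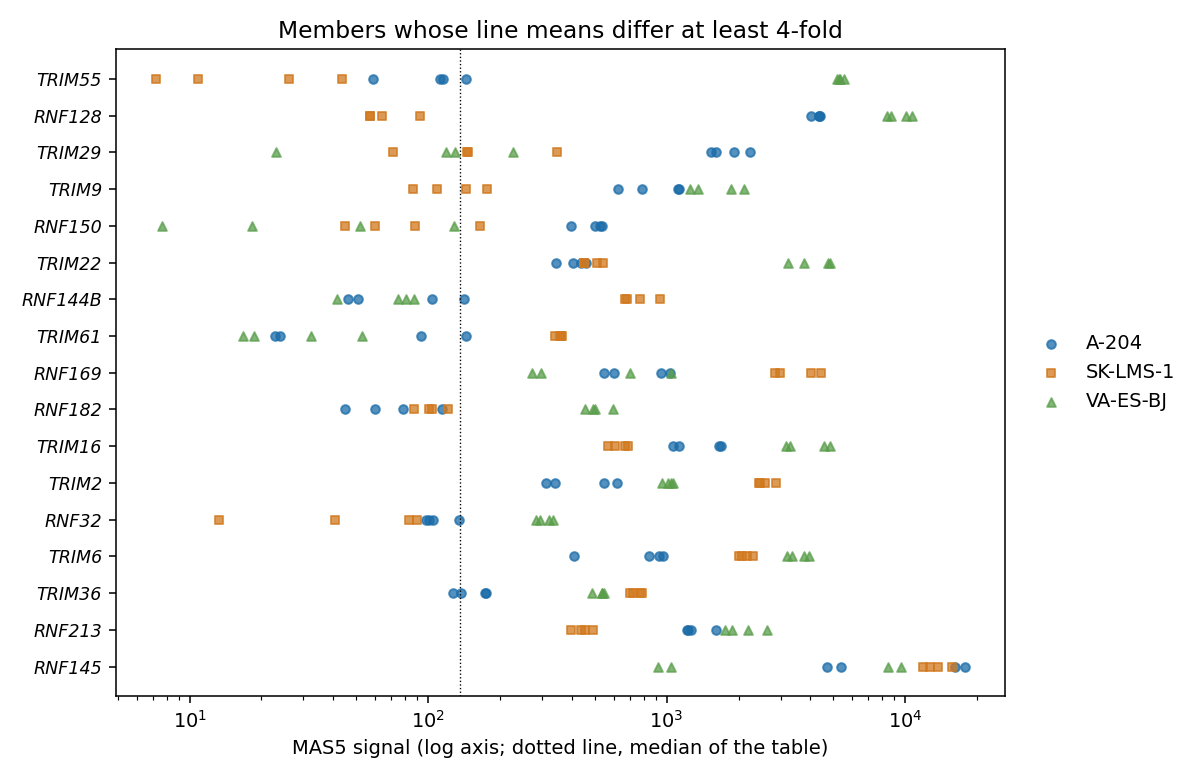
MAS5 signal (horizontal axis, log scale) on each of the 12 arrays for the 17 members whose line means differ at least 4-fold, with 4 points per line and the table median as a dotted line. TRIM55 and RNF128 at the top separate VA-ES-BJ from SK-LMS-1 on every array, and RNF145 at the bottom splits within A-204 and VA-ES-BJ by taurolidine.

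Several of the brightest members did not pass. RNF11 averaged 10974 with taurolidine and 11055 without it (-0.0019 ± 0.060), TRIM44, which lacks a RING, 7236 with taurolidine and 7275 without it (-0.088 ± 0.091), and RNF6 9739 with taurolidine and 9013 without it (0.078 ± 0.068). A dimmer probe set of RNF6 gave -0.68. All 5 microtubule-linked TRIM genes tested missed the threshold, with TRIM36 at -0.095 ± 0.10, TRIM9 at -0.11 ± 0.23 and TRIM55 at -0.31 ± 0.27. Most genes missed it as well (all genes, 18.1% fell and 16.6% rose). Of the 60 members with several tested probe sets, 36 had all of them on one side of 0, and 19 of the 27 called ones did. The matching share over all genes is not given, so these counts describe the members only. The exceptions among called members were RNF130, RNF141, RNF170, RNF187, RNF34, TRIM13, TRIM33 and TRIM37. The counts rest on sign alone, and TRIM56, with -0.39 and -0.039, was counted as lying on one side.

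Other genes of the pathway were counted in the same fit. Of 56 further RING ligase genes tested, 24 fell and 6 rose (all genes, 18.1% fell and 16.6% rose), with a median of -0.22. TRAF6, a ligase of Toll-like receptor and interleukin 1 signalling, changed by -1.80 ± 0.30 (adjusted p = 0.0035), ZNRF3, which clears Wnt receptors, by -1.71 ± 0.21, DTX2, of Notch signalling, by -1.64 ± 0.25, and SIAH2, of the hypoxia response, by -1.58 ± 0.075 (adjusted p = 2.8e-05). Of 27 E1 and E2 genes 6 rose and 6 fell, close to the shares of all genes, with a median of 0.044 against 0.041 for all genes. The falls there were led by UBE2J2, an E2 of the endoplasmic reticulum, at -0.82 ± 0.26, UBE2O at -0.80 ± 0.11, UBE2G1 at -0.72 ± 0.12 and UBE2J1 at -0.43 ± 0.11 (adjusted p from 0.0016 to 0.042). These gene lists were drawn up by hand.

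The remaining 24 members, 11 TRIM and 13 RNF genes, did not reach the level needed for a test. Among them were the muscle ligases TRIM63, TRIM54 and TRIM72, with mean signals of 27.3, 35.1 and 52.7, the Wnt receptor ligase RNF43 at 49.9, and the stem cell gene TRIM71, which exceeded the table median on 2 arrays. The others were TRIM15, TRIM17, TRIM31, TRIM40, TRIM50, TRIM51, TRIM58, RNF17, RNF39, RNF112, RNF133, RNF148, RNF152, RNF157, RNF180, RNF183, RNF186, RNF212B and RNF215. At the limit, the signal that had to exceed 136.5, the third highest of the 12, was 138 for RNF151 and 139.5 for RNF31 just inside, and 135 for RNF39 and 124 for TRIM15 just outside.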

How the data were processed

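Gene expression was measured on 12 arrays, 1 for each of 3 cell lines and 4 treatments. The authors deposited linear array intensity values, made with MAS5 per the submitters' processing notes, with its version and scaling target not known here. The trimmed mean of every array lay between 1000.1 and 1000.2, so arrays share a mean by scaling, and a change in total RNA per cell cannot be seen. The number of arrays limits the precision.

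Of 54675 probe sets 41097 had a single gene in the platform annotation, 1801 several and 11777 none listed, and 41043 of the first were matched to the gene reference. The highest-mean probe set over the filter stood for each gene. Values entered as log2(value + 11.8), 11.8 being the 10th percentile of the table, which understates changes of dim genes. Treatment and line were the terms of the linear models (limma 3.58.1, R 4.3.3; 6 residual and 1.98 prior degrees of freedom), with the line-level fit above as an alternative. The procedure was tested on simulated data with independent noise on each array and the same taurolidine effect in every line. That test cannot speak to responses that differ between lines. Line pairs the arrays: deviations from treatment means correlated at 0.857 to 0.908 within a line and -0.534 to -0.389 between lines. The labels do not say whether arrays came from separate cultures, so p-values reflect array-to-array spread, which may be technical.

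Members and role lists were chosen with earlier results of these data known. Named genes were the 8 largest rises and falls per family among calls of one sign in all lines, up to 3 per role list, the smallest p-values for TRAIL and for line differences, the brightest members, those differing most between lines, those at the filter's limit, RNF34, RNF31 and 4 per further pathway list. Alternatives changed the constant, filter, scaling, probe set rule, lines, line term and arrays fitted. Motifs and promoters came from RefSeq (GRCh38.p14).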

Additional observations from a re-analysis of the deposited data

Results flagged for a closer look

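The response to taurolidine differed between lines for 4 members by the F test of the interaction (limma, 3.5% of all genes were called). RNF145 alone was called with no filter, spike scaling, the mean of all probe sets, or without A-204 or VA-ES-BJ, and 0 members were without SK-LMS-1. RNF145 had an adjusted p of 0.0018, TRIM32 of 0.019, TRIM2 of 0.027 and TRIM27 of 0.049. The fall of RNF145 was deepest in VA-ES-BJ, at -3.19, and those of TRIM32, TRIM27 and TRIM2 were deepest in A-204, at -2.16, -0.98 and -0.82.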

How the results depend on the processing

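Alternatives are given for the counts of calls. Except where stated above, shares of all genes are not given for them. They show how the calls move and not how members compare with other genes. For taurolidine over both TRAIL levels, TRIM rises (2) numbered 1 with no constant, with no filter and with the mean of all probe sets, 4 with quantile normalisation, and 0 with spike scaling and with no replicate block (no line term). TRIM falls (14) numbered 8, 42 and 1 with quantile normalisation, spike scaling and no replicate block. RNF rises (7) numbered 4 with the mean of all probe sets and 0 with spike scaling and no replicate block, and RNF falls (20) numbered 48 with spike scaling and 3 with no replicate block. With 1 response value per line, added after seeing the data, these counts were 0, 2, 0 and 4. Leaving out a line gave 0 TRIM rises, 4 to 8 TRIM falls, 1 to 5 RNF rises and 7 to 12 RNF falls (11 without SK-LMS-1). For taurolidine against untreated cells, TRIM calls (8) numbered 4 with no filter and with quantile normalisation, 3 with equal array medians, 35 with spike scaling, 5 with the mean of all probe sets, and 0 with no replicate block and with only the arrays compared; RNF calls (13) numbered 8 with no filter, 45 with spike scaling, 1 with no replicate block and 0 with only the arrays compared. For both agents against untreated cells, TRIM calls (8) numbered 4 with no filter, 5 with equal array medians, 26 with spike scaling, and 0 with no replicate block and with only the arrays compared; RNF calls (15) numbered 8, 32, 1 and 0 with no filter, spike scaling, no replicate block and only the arrays compared. Without a line these counts ranged from 1 to 2 and 2 to 3 for taurolidine, and 1 to 2 and 1 to 5 for both agents. Line differences in response (4 calls) numbered 7 with the larger constant, 1 with no filter, spike scaling or the mean of all probe sets, and 0 to 1 without a line; line differences in level (84) numbered 53 to 75 without a line. The TRIM median was -0.74 with spike scaling; the RNF median was 0.031 with quantile normalisation, -0.68 with spike scaling and -0.18 to -0.0017 without a line. Of 67 named genes, 39 lost their call with no replicate block, and 35 of 67 with 1 response value per line; none reversed in either. Signs turned with spike scaling for TRIM28 -0.31, TRIM22 -0.39, TRIM61 -0.26, RNF167 -0.031, RNF181 -0.080, RNF187 -0.15, RNF123 -0.18, RNF130 -0.19, RNF7 -0.30, RNF128 -0.42, RNF150 -0.42, RNF182 -0.45, RNF6 -0.52, RNF31 -0.14, TRIM52 -0.53, RNF151 -0.20; with the mean of all probe sets for TRIM61 -0.24, RNF6 -0.30, RNF34 0.0044; with quantile normalisation for TRIM9 0.031, RNF6 -0.022, TRIM36 0.022, RNF185 0.056; with equal array medians for RNF11 0.036; without A-204 for TRIM9 0.16, RNF144B 0.035, RNF11 0.0026, TRIM2 0.10, TRIM36 0.044; without SK-LMS-1 for RNF11 0.010, TRIM67 0.10, TRIM42 0.091; and without VA-ES-BJ for TRIM44 0.0051, TRIM67 0.071, TRIM52 -0.019. The cause was not tested, except that only the arrays compared, and any analysis without a line, leave fewer arrays.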
